A study of Homo sapiens with 4 samples.

Results

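The m6A readers and erasers were chosen by name and not by their values, though with earlier results of these data known. They were taken as 10 genes and matched by NCBI symbol to the Entrez identifiers of the expression table. All 10 were listed among its 16658 genes, and all 10 passed the filter on low values that left 10726 genes for testing. The readers were YTHDF1, YTHDF2, YTHDF3, YTHDC1, YTHDC2, IGF2BP1, IGF2BP2 and IGF2BP3, and the erasers were FTO and ALKBH5. RNA-seq had been performed on untreated cells labelled HepG2, a human line established from a liver tumor, with 2 libraries of wild-type cells (WT) and 2 libraries of cells with a CRISPR/Cas9 knockout of ZCCHC4 (ZCCHC4 KO1), grown in DMEM with serum. The knockout libraries came from 1 clone, so an effect of the knockout and a peculiarity of the clone cannot be told apart. Expression was given as FPKM (fragment counts that the authors corrected for transcript length and library size), so that levels of different genes can be set side by side within a library.

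N6-methyladenosine (m6A) is a methyl mark on adenosines of RNA that is written by methyltransferases, bound by reader proteins and removed by demethylases. Readers of the YTH family hold the methylated base in a pocket of their YTH domain, and those of the IGF2BP family bind through KH domains and stabilize their target mRNAs. The erasers are dioxygenases of the AlkB family. ZCCHC4 is itself an m6A methyltransferase, acting on the RNA of the large ribosomal subunit rather than on mRNA.

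Each family holds close paralogues, so the coding sequences were compared to see whether fragments of one gene could be taken for another. The longest identical run of YTHDF1 and YTHDF2 covered 20 bases and lies in exon 4 of both genes, in the part that encodes the YTH domain. It is shown in capitals within 90 bases of coding sequence, at chr20:63202703-63202792 on the minus strand for YTHDF1 and at chr1:28743481-28743570 on the plus strand for YTHDF2 (GRCh38).
YTHDF1: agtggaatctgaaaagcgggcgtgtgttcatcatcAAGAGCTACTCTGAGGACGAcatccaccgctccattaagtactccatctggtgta
YTHDF2: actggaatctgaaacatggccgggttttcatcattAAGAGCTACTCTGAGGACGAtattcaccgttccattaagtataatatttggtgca
The YTHDF1 window had a GC content of 48.9% and the YTHDF2 window a lower one, and over the whole transcripts the values were 50.9% and 46.0%, a property that comes back with the spread between libraries described below.

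In the IGF2BP family the longest run was shared by IGF2BP1 and IGF2BP2, with 22 bases in exon 1 of each, where the first RNA recognition motif is encoded. The capitals again mark the identical run, at chr17:48997820-48997909 on the plus strand for IGF2BP1 and at chr3:185824794-185824883 on the minus strand for IGF2BP2.
IGF2BP1: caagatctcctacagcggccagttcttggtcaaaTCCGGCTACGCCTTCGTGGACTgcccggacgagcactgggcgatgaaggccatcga
IGF2BP2: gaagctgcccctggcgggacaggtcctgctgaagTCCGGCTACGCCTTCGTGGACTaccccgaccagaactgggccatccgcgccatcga
IGF2BP1 and IGF2BP3 shared a run of 21 bases in the same exon. It is shown for IGF2BP3 at chr7:23469936-23470024 on the minus strand, again in capitals.
IGF2BP3: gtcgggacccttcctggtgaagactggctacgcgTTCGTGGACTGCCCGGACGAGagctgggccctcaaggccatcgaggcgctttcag
No pair of paralogues shared a coding stretch of 25 bases. YTHDF1, YTHDF3, YTHDC1, YTHDC2 and IGF2BP1 had no stretch of 50 bases in common with the GENCODE transcripts of any other gene, on either strand.

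Other genes did overlap some of the members. In IGF2BP3, 44.3% of the 50-base stretches of the canonical transcript also occurred, on either strand, in transcripts of other genes, and 1521 of its exon bases were covered on the opposite strand by MALSU1, which encodes a factor of mitochondrial ribosome assembly. Whether strand was used in counting is not given in the sources used here, so reads of the overlap may have been counted for either gene. MALSU1 was at 67.96 and 69.38 FPKM in WT and at 58.76 and 59.84 FPKM in ZCCHC4 KO1. The share was 18.96% for YTHDF2, shared with the pseudogene YTHDF2P1 and an antisense transcript, and 9.90% for ALKBH5, 7.35% for IGF2BP2 and 1.40% for FTO.

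The targeted gene ZCCHC4 was at 7.22 and 5.44 FPKM in WT and at 1.08 and 2.29 FPKM in ZCCHC4 KO1 (log2 fold change -1.48, SE 0.287, adjusted p = 0.0448 from limma). It passed the threshold of 0.05 by little and lost it without ZCCHC4 KO1 replicate 1 (adjusted p = 0.0514 from limma). Across its 13 alternative fits the adjusted p ranged from 7.91e-31 to 0.115. Of 15 hepatocyte markers, 10 were listed and none exceeded 0.72 FPKM, with sums of 0.67 and 0.65 FPKM in WT against 0.88 and 0.94 FPKM in ZCCHC4 KO1, so the markers of the labelled cell type were absent. AFP was at 0 in 3 libraries and at 0.05 FPKM in the other. The sum of 6 markers of simple epithelium was 5243.62 and 6095.28 FPKM in WT and 9260.13 and 7069.52 FPKM in ZCCHC4 KO1, almost all of it from KRT8, KRT18 and KRT7, while EPCAM did not exceed 0.03 FPKM. The sum of 4 mesenchymal markers was 543.59 and 560.57 FPKM in WT and 391.25 and 415.44 FPKM in ZCCHC4 KO1, nearly all of it VIM, and COL1A1 fell (adjusted p = 0.0235 from limma). The only listed blood marker, PTPRC, did not exceed 0.12 FPKM. The part that these shifts had in the results on readers and erasers was not tested.

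No reader or eraser passed the test between ZCCHC4 KO1 and WT cells at an adjusted p below 0.05. The counts were 0 higher and 0 lower of 10 genes tested, where 5.98% of all tested genes were called, 1.5% higher and 4.48% lower (limma on log2(FPKM + 1), Benjamini-Hochberg adjustment over 10726 genes). At an unadjusted p below 0.05, IGF2BP2 was higher and YTHDF1 lower, against 8.96% and 13.9% of all tested genes. At an FDR under 0.001 from limma with a change of 2-fold or more, 0 of the 10 were called, against 0.0746% of all genes. These thresholds are the study's, but its test is not given in the sources used here. The paper reported far more genes at them than limma called here. The absence of calls at them therefore does not show which readers or erasers the study itself called. In bulk libraries, fewer cells expressing a gene and less RNA per cell cannot be told apart. The median log2 fold change of the 10 genes was 0.08, beside -0.03 for all tested genes. In 5 of the 10 the libraries of the groups did not overlap, 2 with higher and 3 with lower values in ZCCHC4 KO1, a share near that of all tested genes (51.6%, with 23.1% higher and 28.5% lower). The 5 were IGF2BP1 and IGF2BP2 on the higher side and YTHDF1, YTHDF3 and FTO on the lower side.

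**Figure D1:**
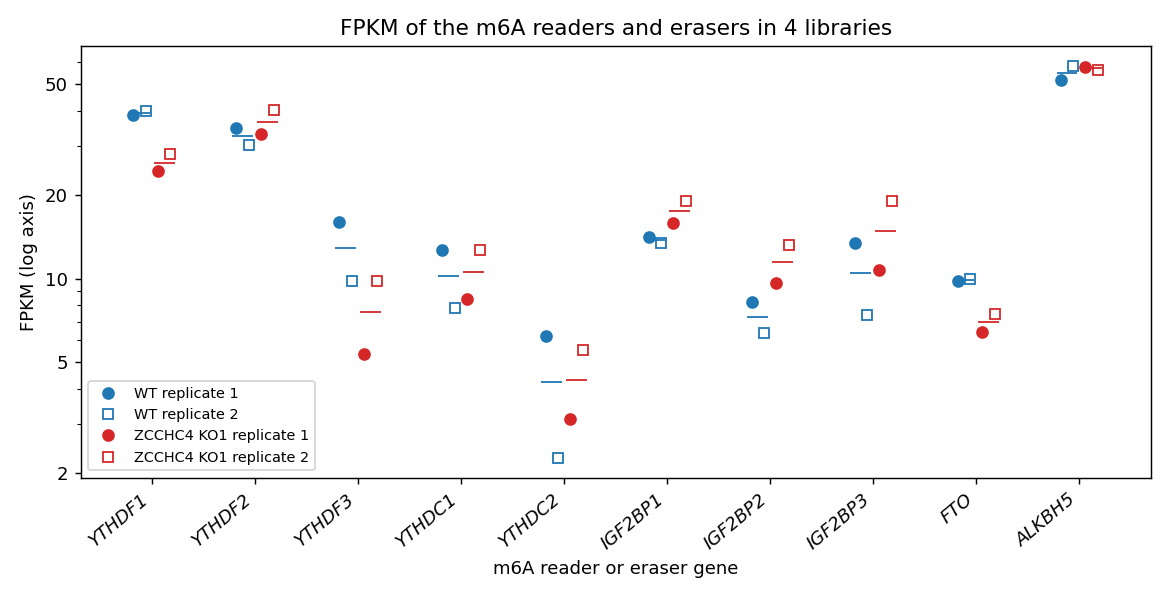
FPKM of each reader and eraser (log axis) in the 4 libraries, with WT in blue and ZCCHC4 KO1 in red, circles for replicate 1, squares for replicate 2 and short lines for group means. YTHDF1 and FTO sit lower and IGF2BP2 higher in both ZCCHC4 KO1 libraries, while YTHDC1, YTHDC2 and IGF2BP3 spread widely within each group.

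Levels differed more between the genes than between the groups. In WT, ALKBH5 had the highest mean at 55.1 ± 4.79 FPKM (SD, n = 2) and YTHDC2 the lowest at 4.25 ± 2.81 FPKM (SD, n = 2). YTHDF1 and YTHDF2 followed ALKBH5 in that order, and each of the 3 was separated from the next gene in both libraries. IGF2BP1, YTHDF3, IGF2BP3, YTHDC1 and FTO came next, between means of 13.8 and 9.87 FPKM, and each overlapped its neighbour in the order. IGF2BP2 followed, below both FTO values but overlapping IGF2BP3 and YTHDC1, and YTHDC2 lay below both IGF2BP2 values. In ZCCHC4 KO1 the order at the top was ALKBH5, YTHDF2, YTHDF1, again without overlap, so YTHDF1 and YTHDF2 had changed places. Below them each gene overlapped the next from IGF2BP1 through IGF2BP3, IGF2BP2, YTHDC1 and YTHDF3 to FTO, and YTHDC2 was again the lowest. Summed over all 10 genes, the level was 205.71 and 185.89 FPKM in WT against 174.84 and 211.49 FPKM in ZCCHC4 KO1, which overlap.

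YTHDF1, a cytoplasmic reader linked to translation of methylated mRNA, lies on chromosome 20 from 63195429 to 63216131. It was at 38.85 and 40.02 FPKM in WT and at 24.31 and 27.97 FPKM in ZCCHC4 KO1. Both knockout libraries were below both WT libraries, by more than the spread within either group. Its log2 fold change was -0.58 (SE 0.144, 95% interval -0.93 to -0.22), and its adjusted p of 0.0813 from limma was the smallest among the 10 genes. In the ranking of mean levels it moved from the percentile 79.1 of tested genes in WT to 71.4 in ZCCHC4 KO1. The same sign was found under all 13 alternative fits. Those that change only the filter, the variance model or the block cannot alter the fold change, so they do not bear on the sign.

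YTHDF2, the cytoplasmic reader that brings the CCR4-NOT deadenylase to methylated mRNA, lies on chromosome 1 from 28736624 to 28769775. It was at 34.75 and 30.37 FPKM in WT and at 33.13 and 40.32 FPKM in ZCCHC4 KO1, so the groups overlapped. The log2 fold change of 0.17 had an interval from -0.24 to 0.57 (adjusted p = 0.615 from limma). The upper end of that interval is close in size to the difference measured for YTHDF1.

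YTHDF3, the third member of this subfamily, lies on chromosome 8 from 63168553 to 63212788. Its level was 16.04 and 9.78 FPKM in WT against 5.37 and 9.77 FPKM in ZCCHC4 KO1. The groups were separated by 0.01 FPKM only, between WT replicate 2 and ZCCHC4 KO1 replicate 2, and the libraries within each group differed widely. With -0.71 (SE 0.341, interval -1.55 to 0.13) the log2 fold change did not pass (adjusted p = 0.289 from limma). It was the lowest of the 10, but it depended on single libraries, at -0.38 without WT replicate 1 and -0.33 when ZCCHC4 KO1 replicate 1 was left out, where YTHDF1 was lower, and at -1.04 and -1.09 without the other library of each group.

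In the YTHDF subfamily the shares of YTHDF1 and YTHDF2 and the total were each separated between the groups, and the share of YTHDF3 was not. The 3 genes summed to 89.64 and 80.17 FPKM in WT and to 62.81 and 78.06 FPKM in ZCCHC4 KO1. YTHDF2 made up 38.77% and 37.88% of that sum in WT, against 52.75% and 51.65% in ZCCHC4 KO1. The share of YTHDF1 was 43.34% and 49.92% in WT, against 38.70% and 35.83% in ZCCHC4 KO1. Expressed as a ratio, YTHDF1 to YTHDF2 stood at 1.12 and 1.32 in the WT libraries, against 0.734 and 0.694 in the knockout libraries. The share of YTHDF3 was 17.89% and 12.2% in WT, against 8.55% and 12.52% in ZCCHC4 KO1, which overlap. The groups did not overlap in the other shares, the ratio or the total. With 2 libraries a group, an exact two-sided permutation test cannot go below 0.333. The comparison was made after the values were seen.

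**Figure D2:**
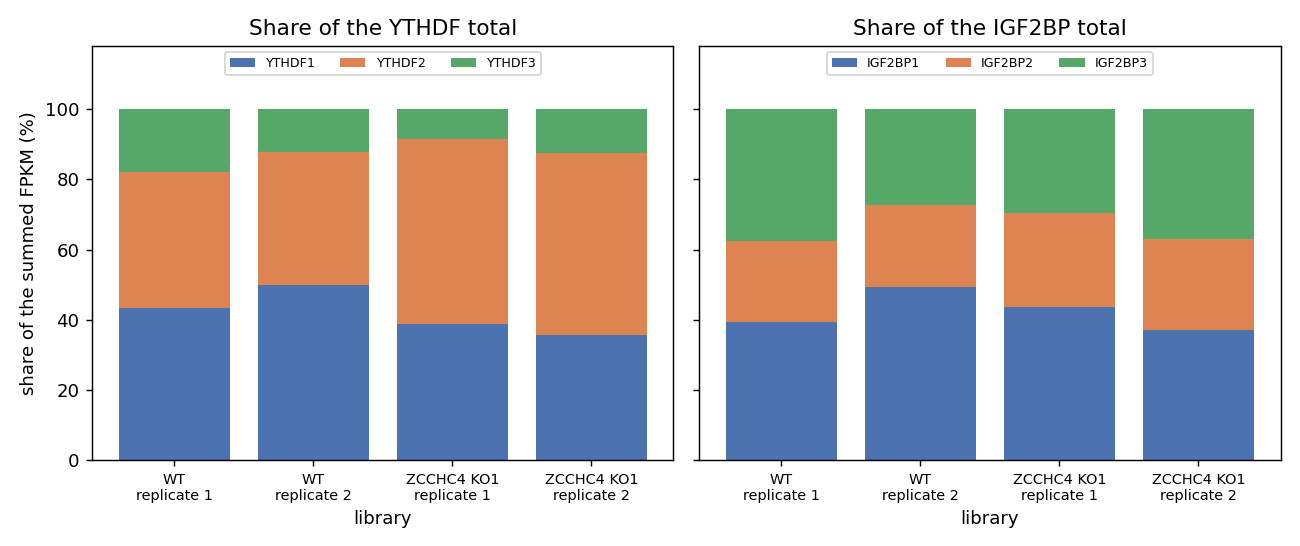
Share of each paralogue in the summed FPKM of its subfamily (%), 1 stacked bar per library. YTHDF2 takes 38.77% and 37.88% of the YTHDF total in WT, against 52.75% and 51.65% in ZCCHC4 KO1. The shares of IGF2BP1 and IGF2BP3 vary within the groups, and that of IGF2BP2 varies little.

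YTHDC1, the nuclear reader linked to splicing and export, lies on chromosome 4 from 68310387 to 68350090. It was at 12.64 and 7.84 FPKM in WT and at 8.46 and 12.64 FPKM in ZCCHC4 KO1, so each group had a high and a low library at nearly the same levels. The log2 fold change was 0.05 with an interval from -0.68 to 0.77 (adjusted p = 0.949 from limma). YTHDC2, a reader with a helicase domain known for its role in meiosis, lies on chromosome 5 from 113513694 to 113595284. Its levels of 6.23 and 2.26 FPKM in WT against 3.11 and 5.54 FPKM in ZCCHC4 KO1 showed the same crossed pattern, and the interval from -0.97 to 1.16 around a log2 fold change of 0.09 leaves a change of up to 2-fold in either direction about possible. For YTHDC2 a difference of that size was not detectable with the libraries at hand.

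The IGF2BP genes encode oncofetal RNA-binding proteins that protect methylated mRNAs from decay, and all 3 had higher means in ZCCHC4 KO1, though none passed the test. IGF2BP1, on chromosome 17 from 48996558 to 49056145, was at 14.07 and 13.43 FPKM in WT and at 15.90 and 19.01 FPKM in ZCCHC4 KO1 (log2 fold change 0.32, interval -0.10 to 0.74, adjusted p = 0.337 from limma). IGF2BP2, on chromosome 3 from 185643130 to 185825042, was at 8.23 and 6.35 FPKM in WT and at 9.65 and 13.23 FPKM in ZCCHC4 KO1. Its mean was thus 1.57-fold that of WT, with a log2 fold change of 0.58 (SE 0.233, interval 0.01 to 1.15, adjusted p = 0.214 from limma). IGF2BP3, on chromosome 7 from 23310209 to 23470491, was at 13.47 and 7.41 FPKM in WT and at 10.75 and 18.97 FPKM in ZCCHC4 KO1. Here the groups overlapped, and the log2 fold change of 0.47 had an interval from -0.42 to 1.36 (adjusted p = 0.508 from limma). It was 0.08 without WT replicate 2 and 0.09 when ZCCHC4 KO1 replicate 2 was left out, and 0.87 and 0.86 without replicate 1 of either group. Together the 3 genes summed to 35.77 and 27.19 FPKM in WT and to 36.30 and 51.21 FPKM in ZCCHC4 KO1, a gap between the groups that is small against the spread within them. The share of IGF2BP2 in that sum was the steadiest, with 23.01% and 23.35% in WT, against 26.58% and 25.83% in ZCCHC4 KO1.

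Of the erasers, FTO, which also demethylates the base next to the cap of mRNA, lies on chromosome 16 from 53703963 to 54121941. It was at 9.76 and 9.98 FPKM in WT and at 6.42 and 7.48 FPKM in ZCCHC4 KO1. Both knockout libraries were below WT, at 0.704 of the WT mean, and the log2 fold change was -0.45 (SE 0.184, interval -0.91 to 0.00, adjusted p = 0.219 from limma). ALKBH5, the nuclear eraser of mRNA, lies on chromosome 17 from 18183828 to 18209954 and was at 51.67 and 58.45 FPKM in WT and at 57.74 and 56.56 FPKM in ZCCHC4 KO1. Its interval, from -0.27 to 0.39 around a log2 fold change of 0.06, was the narrowest of the 10. FTO accounted for 15.89% and 14.58% of the summed FPKM of both erasers in WT and for 10.01% and 11.68% in ZCCHC4 KO1, while the sum itself was 61.43 and 68.43 FPKM in WT and 64.16 and 64.04 FPKM in ZCCHC4 KO1.

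The wide spread of some members within a group went with the GC content of their transcripts. YTHDF3, YTHDC2, YTHDC1 and IGF2BP3 had canonical transcripts of 38.4%, 40.1%, 40.3% and 40.6% GC, the lowest of the 10, and each was lower in WT replicate 2 than in WT replicate 1, by 0.63 to 1.15 on the log2(FPKM + 1) scale. In ZCCHC4 KO1 the same 4 genes were higher in replicate 2 than in replicate 1, by 0.53 to 0.77. ALKBH5, at 57.6% GC, differed by 0.17 and -0.03. Across the 10 genes the Spearman correlation of GC content with that difference between replicates was 0.879 for WT and -0.83 for the knockout (Pearson 0.851 and -0.913), beside Spearman values of 0.725 and -0.784 across the 10559 tested genes with a GC value. The genes share their libraries, so these are descriptions of 4 libraries. GC content and the change between the groups had a Spearman correlation of 0.164 over the 10 genes.

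When the trend on GC content was removed from each library, 2 of the 10 genes passed at an adjusted p below 0.05, and both fell, where 13.7% of all genes were called lower and 8.32% higher by that fit. YTHDF1 had a log2 fold change of -0.57 (interval -0.87 to -0.27, adjusted p = 0.0168 from limma), with a range of 1.27e-07 to 0.525 for the adjusted p over its 13 alternative fits. YTHDF3 had -0.66 (interval -1.09 to -0.22, adjusted p = 0.0417 from limma), with a range of 2.90e-08 to 0.925. Both also passed without ZCCHC4 KO1 replicate 2, with adjusted p of 0.0270 and 0.0297 from limma, in a fit that called 9.67% of all genes lower and 5.2% higher. IGF2BP2 and IGF2BP3 had GC-adjusted values of 0.62 (interval 0.12 to 1.12) and 0.58 (interval 0.08 to 1.07), which did not pass (adjusted p = 0.0809 and 0.0971 from limma). Over their alternatives the adjusted p ranged from 8.95e-06 to 0.801 for IGF2BP2 and from 0.000207 to 0.963 for IGF2BP3. The lowest value of each of these ranges came from the crossed replicate block, a fit chosen after seeing the data. It called 2309 of all genes higher and 2986 lower. After GC adjustment the libraries of YTHDF2 and IGF2BP3 no longer overlapped either. Thus 4 of the 10 genes lay higher and 3 lower without overlap, where 27.1% and 33.2% of all genes did.

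**Figure D3:**
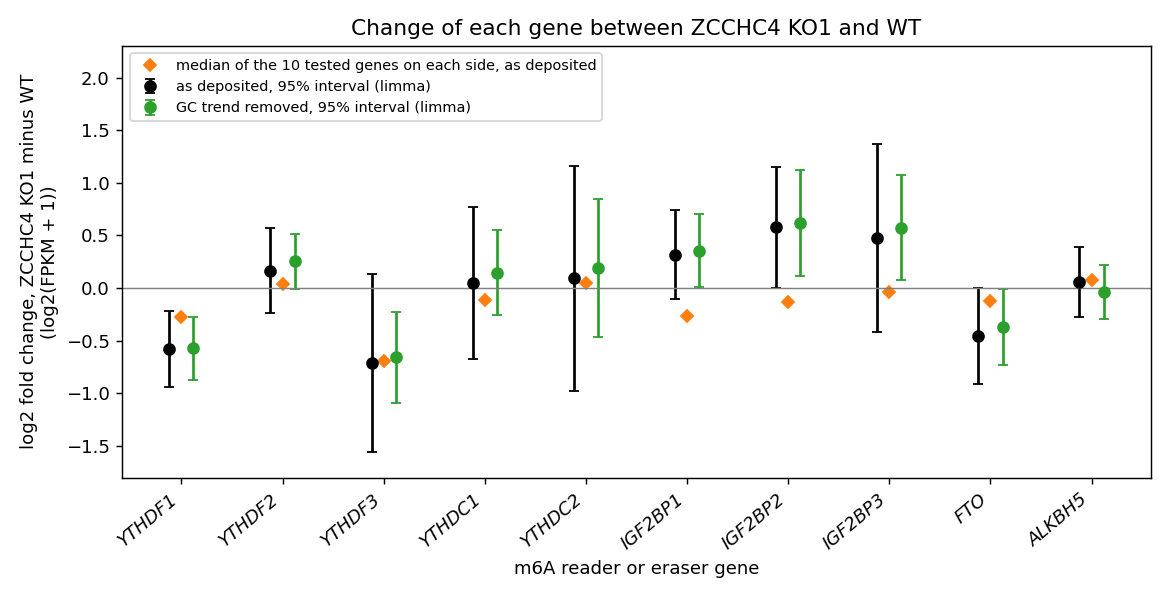
Log2 fold change of each reader and eraser, ZCCHC4 KO1 minus WT, as deposited (black) and with the GC trend removed (green), with 95% intervals from limma, and the median of the 10 tested genes on each side (orange). The intervals narrow for the AT-rich genes. After GC removal those of YTHDF1, YTHDF3 and FTO lie below 0, and those of IGF2BP1, IGF2BP2 and IGF2BP3 above 0. Only YTHDF1 and YTHDF3 pass at an adjusted p below 0.05 in that fit. The YTHDF3 value as deposited lies close to its neighbours' median.

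Each member was also set beside the 10 nearest tested genes on either side. Over all 10726 tested genes, 5708 had a log2 fold change below 0, and 4.48% were called lower. Around YTHDF3, 19 of 20 neighbours were lower in ZCCHC4 KO1, 5 of them past the test, with a median log2 fold change of -0.69 beside -0.71 for YTHDF3. With the GC trend removed the neighbours' median was -0.60. Around YTHDF1, 16 of 20 neighbours were lower, with a median of -0.28 (-0.32 with the GC trend removed). The nearest tested genes beside YTHDF1 were GID8 at -0.37 and BIRC7, an inhibitor of apoptosis, at -1.50. FTO was below the median of its neighbours, which was -0.12 with 13 of 20 lower than in WT. IGF2BP2 lay above the median of its neighbours, which was -0.13 with 13 of 20 lower, and SENP2 and TRA2B on its sides were at 0.02 and -0.13. IGF2BP1 likewise lay above its neighbours' median of -0.26, and of these neighbours 4 were called lower and 0 higher. The neighbours of YTHDF2, YTHDC1, YTHDC2, IGF2BP3 and ALKBH5 had medians between -0.12 and 0.08. No DNA was analysed here, so copy number and transcription of a region cannot be told apart.

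**Figure D4:**
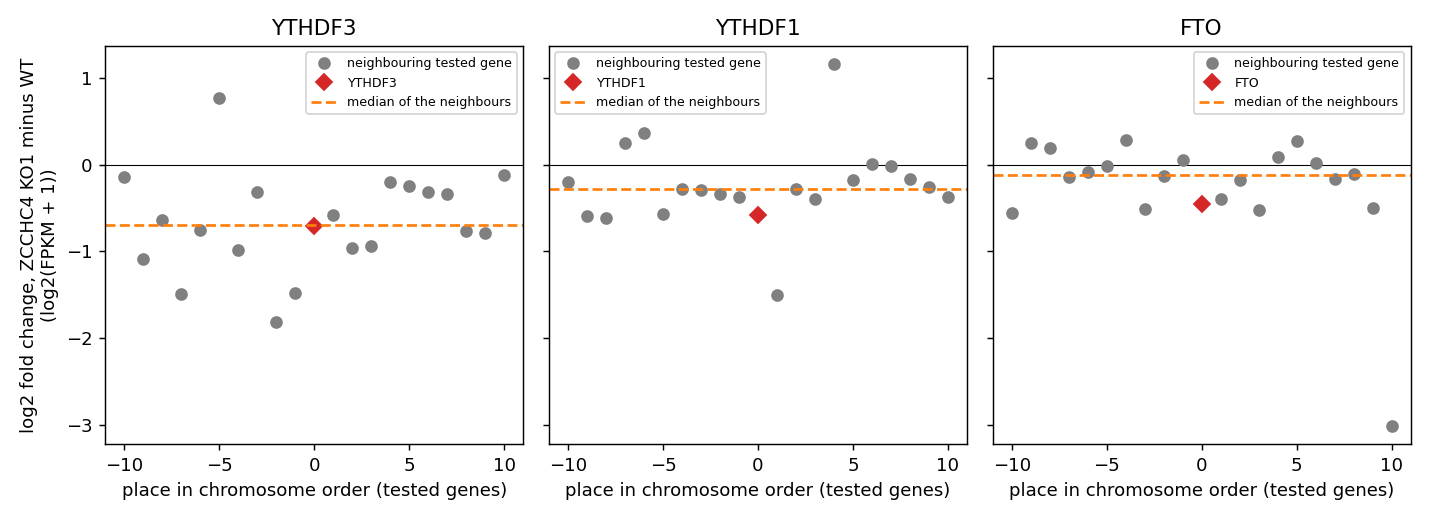
Log2 fold change, ZCCHC4 KO1 minus WT, of YTHDF3, YTHDF1 and FTO (red) and of the 10 tested genes on each side (grey), in chromosome order. The dashed line is the neighbours' median, at -0.69, -0.28 and -0.12, and YTHDF3 lies on it while YTHDF1 and FTO lie below it.

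Genes with a pattern over the 4 libraries most like that of YTHDF1, by Euclidean distance of log2(FPKM + 1) centred on each gene's mean, were PLEKHB2, PRCP and KDELR2, at distances of 0.013, 0.015 and 0.018. For IGF2BP2 they were C2orf49, RTKN2 and NPIPB9, at 0.044, 0.049 and 0.06. With 4 libraries in 2 groups such closeness is a description only.

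Other genes of the m6A pathway showed few calls, where 5.98% of all tested genes were called. Of 14 writers and their cofactors, ZCCHC4 itself was the only one to pass, and the list had a median log2 fold change of 0.05. METTL3, the catalytic subunit of the mRNA methyltransferase, was at 29.39 and 30.18 FPKM in WT and at 22.22 and 23.20 FPKM in ZCCHC4 KO1. Its log2 fold change was -0.38 (adjusted p = 0.182 from limma), and it was singled out after its values were seen. RBM15, on the same list, went the other way (log2 fold change 0.56, adjusted p = 0.186 from limma). Of the 14 genes, 7 had log2 fold changes above 0 and 7 below 0. Of 12 other RNA-binding proteins associated with m6A, 0 passed at an adjusted p and 0 had an unadjusted p below 0.05 from limma, with a median of 0.00 on the log2 scale. The 7 other AlkB dioxygenases all had log2 fold changes above 0, with a median of 0.20, where 5018 of all 10726 tested genes lay above 0. Of the 7, 0 passed and 1, ALKBH4, had an unadjusted p below 0.05 from limma (log2 fold change 0.49, adjusted p = 0.206).

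Reader effectors, such as subunits of CCR4-NOT, were tested for 21 of 22 genes, and 0 passed. At an unadjusted p below 0.05 from limma 3 were higher and 0 lower, against 8.96% and 13.9% of all tested genes, and the list's median was -0.03. The 3, named for this reason after their values were seen, were CNOT11, UPF1 and NXF1, with log2 fold changes of 0.60, 0.55 and 0.44 and adjusted p of 0.0963, 0.0948 and 0.149 from limma. They encode a subunit of CCR4-NOT, the helicase of nonsense-mediated decay and an mRNA export receptor. Of 12 genes bound by IGF2BP proteins or expressed with them in fetal tissue, 11 were listed and 8 tested, with a median of -0.06. Of the 8, 4 had log2 fold changes above 0 and 4 below 0, and at an unadjusted p below 0.05 from limma 1 was higher and 2 lower. CD44, a hyaluronan receptor whose mRNA is bound by IGF2BP proteins, fell from 102.4 and 107.23 FPKM in WT to 46.43 and 55.90 FPKM in ZCCHC4 KO1 (log2 fold change -1.03, SE 0.145, adjusted p = 0.0196 from limma), the only call of that list. MYC, on the same list, went the other way, from 167.15 and 169.81 FPKM in WT to 221.42 and 257.77 FPKM in ZCCHC4 KO1 (log2 fold change 0.50, adjusted p = 0.0985 from limma). It was singled out after its values were seen. IGF2 and LIN28B did not exceed 0.63 and 0.01 FPKM.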

How the data were processed

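RNA-seq values of 4 libraries were used, 2 of WT and 2 of ZCCHC4 KO1, grouped by their titles. Bowtie2 had been used by the authors for alignment to GRCh38 and RSEM for gene levels, which they deposited as FPKM in 1 column for each library (0 columns had no sample). Versions, annotation, read filters and strand are not given in the sources used here. The methods name a BGISEQ-500 and the labels an Illumina HiSeq. Depth is unknown, so no counting error is given, and precision rests on 2 libraries per group. Nothing says that replicates were separate cultures, so p-values measure the spread between these libraries, which may be technical.

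Genes with FPKM of at least 1 in at least 2 libraries (10726) were compared as log2(FPKM + 1), a scale that understates changes of low genes, with limma 3.58.1 (lmFit, eBayes with trend) in R 4.3.3 and Benjamini-Hochberg adjustment. A gene passed at an adjusted p below 0.05. The test was checked on simulated data. Symbols and positions came from RefSeq (GRCh38.p14, 16384 of 16658 identifiers matched), and transcripts, GC content (98.4% of tested genes) and sequences from GENCODE v44 on GRCh38. All 10 members were named, with ZCCHC4, up to 3 passing genes of each other list, and, for the 2 members with the smallest p, the nearest tested genes and the 3 most alike profiles. The members and lists were chosen with earlier results of these data known. Alternatives were a pseudocount of 0.1, no filter, a minimum FPKM of 5, median-ratio scaling, quantile normalization and eBayes without a trend. Others were GC-trend removal (natural spline, 4 degrees of freedom), the replicate block, each library left out, and other thresholds. The crossed replicate block, which pairs replicate 1 of each group with replicate 2 of the other, was added after seeing the data.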

Additional observations from a re-analysis of the deposited data

How the results depend on the processing

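No member passed with a pseudocount of 0.1, no filter, a minimum FPKM of 5, median-ratio scaling, quantile normalization, eBayes without a trend, the study's thresholds or a fold of at least 2 without a test. Members called lower numbered 2 with the GC trend removed and 0 to 2 when each library was left out, with 2 only without ZCCHC4 KO1 replicate 2 (where 9.67% of all genes were called lower), and members called higher 0 to 0. Of the other m6A genes (the 5 lists above, without ZCCHC4), 0 were higher and 1, CD44, lower as reported. This became 2 and 2 after quantile normalization, 7 and 3 once the GC trend was removed, 0 lower with no filter and 0 lower at the study's thresholds, and 0 to 1 higher and 1 to 4 lower when each library was left out. Over all tested genes, 161 higher and 480 lower calls became 878 and 1444 with the GC trend removed, 346 and 664 after scaling by median ratios, 466 and 721 after quantile normalization, 82 and 262 with no filter, and 558 and 1037 without ZCCHC4 KO1 replicate 2, while the other fits that left out a library gave 97 to 133 and 273 to 452. In fits with 1 library in a group, that library is assumed to vary like the others. What caused these shifts was not tested.

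For genes far from any call the sign turned. ALKBH5 was at -0.035 with the GC trend removed. Leaving out each library gave -0.032 to 0.143 for ALKBH5, -0.264 to 0.362 for YTHDC1 and -0.48 to 0.669 for YTHDC2. The other 7 members kept their sign in all 13 alternatives, though fits that change only the filter, variance model or block cannot alter it. Over the libraries left out, the ranges were -0.676 to -0.481 for YTHDF1, 0.027 to 0.303 for YTHDF2 and -1.089 to -0.332 for YTHDF3. They were 0.197 to 0.44 for IGF2BP1, 0.371 to 0.789 for IGF2BP2, 0.082 to 0.865 for IGF2BP3 and -0.551 to -0.358 for FTO. ZCCHC4 did not pass with a pseudocount of 0.1 (log2 fold change -1.923) or with no filter (-1.476), and ranged from -1.807 to -1.145 when each library was left out. The scaling moved the median of all genes by less than 0.1, from -0.029 to 0.038 with median ratios and 0.041 with quantiles.

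With the replicate block 0 members were higher and 0 lower, and 0 and 1 of the other m6A genes, against 107 and 355 of all genes. Replicate numbers are all that the labels of the groups have in common, and across genes the difference of replicate 2 from replicate 1 in WT correlated with that in ZCCHC4 KO1 at a Pearson value of -0.787. With the crossed replicate block, chosen after seeing the data, 3 members were higher and 3 lower, and 19 and 10 of the other m6A genes, against 2309 and 2986 of all genes, with an infinite prior in a fit with 1 residual degree of freedom. The prior was also infinite for the replicate block and for the fits without WT replicate 1 or WT replicate 2.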
